A study of Sus scrofa with 16 samples.

Results

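Major histocompatibility complex (MHC) class I and peptide loading genes were followed in pig liver: the swine leukocyte antigen genes SLA-1, SLA-2, SLA-3, SLA-5, SLA-6, SLA-7 and SLA-8, the light chain gene B2M, and the peptide transporter genes TAP1 and TAP2. Members were the array probes whose gene name, or the gene symbol in whose description, was one of these 10 symbols, and each probe was kept on its own because class I genes are polymorphic. The rule found 32 of the 43603 probes, for 8 of the 10 genes, on an array whose probes carry 5590 gene symbols. B2M had 10 probes, SLA-3 had 8, SLA-8 had 4, SLA-1 had 3, SLA-5, SLA-6 and TAP1 had 2 each and SLA-7 had 1. SLA-2 and TAP2 had none under the rule. The samples were livers of 16 pigs, Sus scrofa, that weighed 20 kg and had feed ad libitum: 8 of a low-RFI line (labelled RFIneg) and 8 of a high-RFI line (labelled RFIpl). RFI is residual feed intake, the feed a pig eats beyond what its growth and maintenance predict. The comparison asks how selection on RFI relates to liver transcript levels. The labels name no further line, breed, sex or age, so an effect of selection and any other difference between the lines cannot be told apart.

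Class I molecules present peptides from inside the cell to CD8+ T cells. A heavy chain encoded by an SLA gene pairs with beta-2-microglobulin, the product of B2M, in the endoplasmic reticulum. TAP1 and TAP2 form the transporter that carries peptides there from the cytosol. SLA-1, SLA-2 and SLA-3 are the classical, highly polymorphic heavy chain genes of the pig, and SLA-6, SLA-7 and SLA-8 are non-classical ones. Class I genes are induced by interferons, and in liver they are expressed by hepatocytes as well as by immune and endothelial cells. In the RefSeq gene order of Sscrofa11.1, SLA-1, SLA-5, SLA-2 and SLA-3 lie close together, SLA-8, SLA-7 and SLA-6 follow one another, TAP2 and TAP1 lie further on, and B2M is elsewhere.

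Total RNA was labelled with Cy3 and hybridised to 1-colour Agilent arrays, 1 array per pig. Levels are log2 processed signal minus the 75th percentile of the array, changes are low-RFI minus high-RFI on that log2 scale, and a probe's level is not set against that of another probe. Each array had 28695 to 35126 probes well above background and no saturated spot, and the number of arrays limits the precision. The 4 slides held 2 pigs of each line. Array noise, the median coefficient of variation that the scanner software gives, averaged 6.97% ± 0.502 on arrays of the low-RFI line and 8.04% ± 0.658 on those of the high-RFI line (SD, n = 8 each, exact two-sided permutation p = 0.00373), and the software marked 5 high-RFI arrays and no low-RFI array for evaluation. All 7 measured hepatocyte markers were well above background on all 16 arrays. Low-RFI pig 5 and high-RFI pig 5 had the highest T and NK cell marker levels of their lines, at 1.49 and 1.08 as mean log2 deviation over 12 markers, and the highest interferon-inducible levels, at 1.70 and 1.06 over 17 genes.

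Because the class I genes are close relatives, the probe sequences decide what each measurement can tell apart. The following 60-base probes overlap in sequence, and capitals mark the bases at which the members of a pair differ within their overlap. The first pair carries the names of 2 genes, covers the same 60 bases and differs at 8 of them.
SLA-1 A_72_P262732: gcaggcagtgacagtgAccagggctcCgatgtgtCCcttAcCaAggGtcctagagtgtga
SLA-5 A_72_P441848: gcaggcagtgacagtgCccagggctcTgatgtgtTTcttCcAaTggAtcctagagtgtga
The second pair shares 59 bases and differs at 4.
SLA-3 A_72_P440386: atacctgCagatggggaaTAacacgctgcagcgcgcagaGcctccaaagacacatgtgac
SLA-1 A_72_P440391: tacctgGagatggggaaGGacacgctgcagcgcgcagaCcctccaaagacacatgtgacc
The third pair shares 34 bases and differs at 6.
SLA-3 A_72_P625729: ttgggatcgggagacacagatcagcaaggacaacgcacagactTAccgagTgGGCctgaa
SLA-5 A_72_P414498: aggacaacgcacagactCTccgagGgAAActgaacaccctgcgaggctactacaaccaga
The fourth pair belongs to SLA-8, shares 58 bases and differs at 1.
SLA-8 A_72_P541846: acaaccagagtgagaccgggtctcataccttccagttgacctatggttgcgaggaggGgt
SLA-8 A_72_P734731: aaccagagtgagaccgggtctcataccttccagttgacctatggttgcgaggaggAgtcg
Another SLA-8 probe ends with the 15 bases with which A_72_P541846 begins, and is shown because it gave another result.
SLA-8 A_72_P517672: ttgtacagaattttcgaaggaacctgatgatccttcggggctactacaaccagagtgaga
In the fifth pair, SLA-3 probes A_72_P682906 and A_72_P625308 share 42 bases with no difference. The first of them starts with 18 bases of its own, ggcaatggaccatctcca, and the second ends with 18 of its own, gccgaggaaacacaggag. The sixth pair, of B2M, shares 34 bases and differs at 1. Of the 13 probes of SLA-1, SLA-3 and SLA-5, 5 list accessions of more than 1 SLA gene, and A_72_P683231 lists those of SLA-1, SLA-2, SLA-3 and SLA-5. SLA-2 is listed by 4 probes that carry another gene's name. Levels under these names are therefore levels of probes, not of single genes.

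No member probe was called between the lines. Of the 31 members tested, 0 had an adjusted p under 0.05 (limma, adjusted by Benjamini-Hochberg across every tested probe), where 3 of all 30098 tested probes were called, or 0.00997%. At an unadjusted p under 0.05, 3 members stood beside 1640 probes in all, or 5.45%. The levels of the lines overlapped for every tested member, while 13 tested probes in all, or 0.0432%, had lines that did not overlap. The changes of the members had a median of 0.01, with 16 above and 15 below 0, and the median over all tested probes was 0.00. The members with an unadjusted p under 0.05 were 1 SLA-3 and 2 SLA-8 probes, all 3 with the higher mean in low-RFI pigs.

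**Figure D1:**
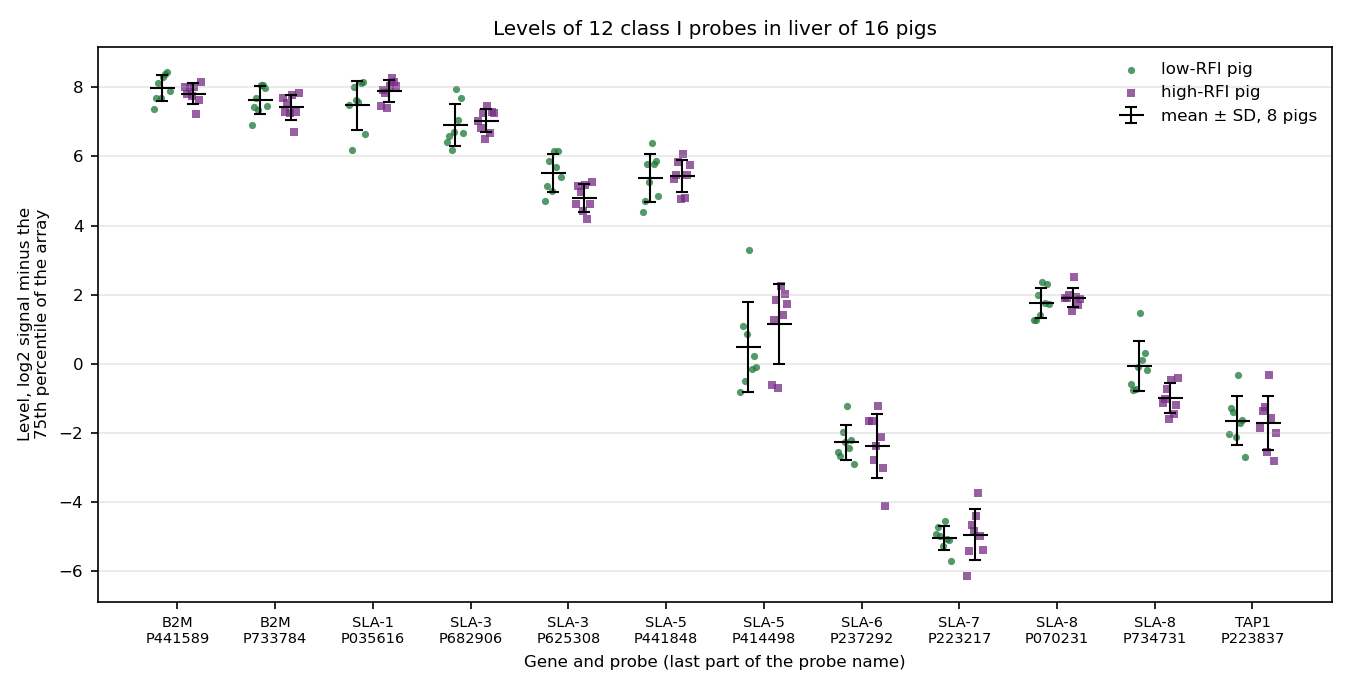
Levels of 12 member probes, the one of highest mean level of each gene and the one with the smallest p, as log2 signal minus the 75th percentile of the array; each point is 1 of 8 low-RFI (circles) or 8 high-RFI (squares) pigs, and bars give mean ± SD. The lines overlap for every probe, and low-RFI pig 5 stands far above its line for SLA-5 A_72_P414498.

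For SLA-1, a classical heavy chain gene, probe A_72_P035616 gave 6.18 to 8.17 in low-RFI pigs (median 7.62) and 7.41 to 8.26 in high-RFI pigs (median 7.98). Low-RFI pigs 2 and 8 were the lowest of all 16 on this probe, and the other 6 low-RFI pigs lay within the range of the high-RFI line. Its change was -0.41 (SE 0.26, adjusted p = 0.975). The other SLA-1 probes, A_72_P262732 and A_72_P440391, changed by -0.19 and -0.22, so all 3 had the lower mean in low-RFI pigs and none passed the test.

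The 8 SLA-3 probes did not move as 1. SLA-3 is the second classical gene measured. On A_72_P682906, the brightest of them, low-RFI pigs ranged from 6.19 to 7.96 (median 6.70) and high-RFI pigs from 6.51 to 7.45 (median 7.14), with a change of -0.13 (SE 0.23, adjusted p = 0.998). On A_72_P625308 low-RFI pigs ranged from 4.71 to 6.17 (median 5.56) and high-RFI pigs from 4.19 to 5.27 (median 4.80). There 7 of 8 low-RFI pigs exceeded the high-RFI mean, 5.52 ± 0.54 against 4.80 ± 0.40 (SD, n = 8), and the ranges overlapped between 4.71 and 5.27. The change of A_72_P625308 was 0.72 (SE 0.22, unadjusted p = 0.00471) and did not pass the adjustment (adjusted p = 0.573). The other 7 SLA-3 probes changed by -0.21 to -0.05. Across the 16 pigs the correlation between SLA-3 probes ran from 0.227 to 0.967, lowest between A_72_P625308 and A_72_P625729. The SD of A_72_P625729 was 1.23 within low-RFI pigs and 0.33 within high-RFI pigs, and low-RFI pigs 2 and 3 were at 0.91 and 0.95 where every high-RFI pig was at or above 2.32.

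SLA-5, which lies beside SLA-1 in RefSeq, was measured by 2 probes. A_72_P441848 ranged from 4.39 to 6.40 in low-RFI pigs (median 5.51) and from 4.78 to 6.08 in high-RFI pigs (median 5.45), so that the lines covered nearly the same range. Its change was -0.06 (SE 0.27, adjusted p = 0.998). A_72_P414498 ranged from -0.81 to 3.29 in low-RFI pigs (median 0.06) and from -0.71 to 2.24 in high-RFI pigs (median 1.56). On this probe 7 of the 8 low-RFI values were under the mean of the other line, and low-RFI pig 5 was the highest of all 16. Its change was -0.66 (SE 0.56, adjusted p = 0.979), and without both pigs numbered 5 it was -0.90. Its SD within lines, 1.23, was larger than that of 99.0% of all tested probes. The 2 SLA-5 probes correlated at 0.547 over the pigs.

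SLA-8, a non-classical heavy chain gene, gave the largest changes among the tested members, but only on 2 of its 4 probes. On A_72_P734731 low-RFI pigs ranged from -0.75 to 1.46 (median -0.14) and high-RFI pigs from -1.60 to -0.41 (median -1.09). All 8 low-RFI pigs exceeded the high-RFI mean, -0.06 ± 0.73 against -1.01 ± 0.43 (SD, n = 8), although the ranges overlapped between -0.75 and -0.41. The change was 0.95 (SE 0.28, unadjusted p = 0.00306, adjusted p = 0.506), and A_72_P541846, with 58 bases in common, changed by 0.80 (SE 0.27, unadjusted p = 0.00837, adjusted p = 0.649). Within slides 1 to 4 the change of A_72_P734731 was 1.09, 1.19, 1.10 and 0.43. The remaining 2 SLA-8 probes went the other way by small amounts. A_72_P070231 ranged from 1.26 to 2.36 in low-RFI pigs (median 1.74) and from 1.54 to 2.50 in high-RFI pigs (median 1.90), with a change of -0.16 (SE 0.17, adjusted p = 0.979). A_72_P517672, whose last 15 bases open A_72_P541846, changed by -0.16 (SE 0.20, adjusted p = 0.983). Across pigs the probes of SLA-8 correlated from 0.278, between A_72_P734731 and A_72_P517672, to 0.993, between the overlapping 2.

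The other non-classical genes did not differ beyond their spread. SLA-6 was measured by A_72_P237292, at -2.89 to -1.21 in low-RFI pigs (median -2.35) and -4.11 to -1.22 in high-RFI pigs (median -2.24). High-RFI pig 8 was the lowest of all 16 on this probe and the change was 0.09 (SE 0.34, adjusted p = 0.998). The second SLA-6 probe, A_72_P260597, was not well above background on any of the 16 arrays and was not tested. SLA-7 was measured by A_72_P223217, whose signal passed the background criterion in 7 pigs of the low-RFI line and 5 of the high-RFI line. Its levels ran from -5.71 to -4.56 in low-RFI pigs (median -5.03) and from -6.16 to -3.74 in high-RFI pigs (median -4.91), with a change of -0.09 (SE 0.27, adjusted p = 0.998).

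For B2M, the shared light chain, all 10 probes had the higher mean in low-RFI pigs, by 0.12 to 0.21, and none passed the test (adjusted p from 0.979 to 0.998). On A_72_P441589, the brightest, low-RFI pigs ranged from 7.38 to 8.44 (median 8.01) and high-RFI pigs from 7.22 to 8.17 (median 7.89). The change was 0.17 (SE 0.17), with 5 of 8 low-RFI pigs above the high-RFI mean. On A_72_P733784, the probe with the smallest p, low-RFI pigs ranged from 6.92 to 8.08 (median 7.57) and high-RFI pigs from 6.71 to 7.84 (median 7.42), with a change of 0.20 (SE 0.19, adjusted p = 0.979). The 10 probes correlated with each other at 0.921 to 0.997 over the pigs, so they repeat 1 measurement rather than give 10. RefSeq lists B2M under more than 1 gene entry, with 1 other gene starting between them. Whether the probes tell these entries apart was not tested. With array noise in the fit the changes of the 10 probes ran from -0.10 to 0.09.

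TAP1, one chain of the peptide transporter, did not differ beyond its spread. On A_72_P223837 low-RFI pigs ranged from -2.70 to -0.32 (median -1.67) and high-RFI pigs from -2.83 to -0.34 (median -1.72), with pigs numbered 5 at the top of both lines. The change was 0.08 (SE 0.34, adjusted p = 0.998), and A_72_P172206 changed by 0.01 (SE 0.30). TAP2, the partner of TAP1, had no probe under the rule. Outside it, 2 probes described as transporter 2 of ATP-binding cassette sub-family B, A_72_P390538 and A_72_P510149, changed by 0.36 (SE 0.28) and 0.37 (SE 0.30) with adjusted p = 0.979 for both in the limma fit.

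**Figure D2:**
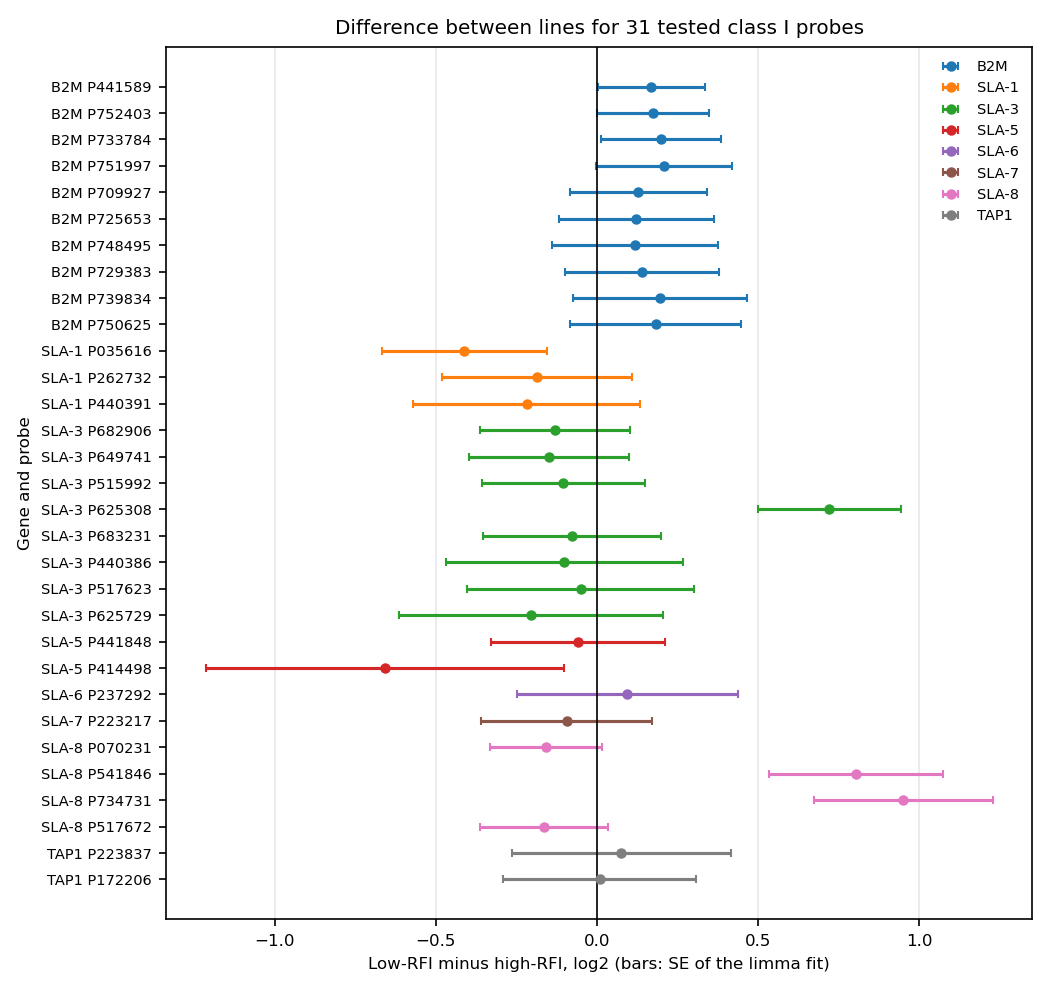
Change between lines, low-RFI minus high-RFI on the log2 scale, for the 31 tested member probes grouped by gene, with bars giving the SE of the limma fit. SLA-3 A_72_P625308 at 0.72 and the SLA-8 probes A_72_P541846 and A_72_P734731 at 0.80 and 0.95 stand apart from the other probes of the same genes.

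Members varied more between pigs of 1 line than most probes did. The SD within lines had a median of 0.575 over the 31 tested members and 0.326 over all tested probes. All 31 lay above the latter median, and 9 lay above 0.628, the 90th percentile of all tested probes. Set against tested probes of like mean level only, the SD of the members lay between the percentiles 63.0 and 99.2. Low-RFI pig 5 was the highest of its line for 24 of the 31 members and high-RFI pig 5 for 22. Low-RFI pig 1 was the lowest of its line for 17 members, high-RFI pig 6 for 14 and high-RFI pig 4 for 11. Within each line the same pigs thus recur at the ends, and the probes are not independent of each other. The array of high-RFI pig 6 was among those marked for evaluation. It had the most probes well above background, 35126, and the lowest 75th percentile, an intensity of 320. With 1 array per pig, pig and array cannot be told apart, and the part of the array was not tested.

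The change within single slides varied with the pigs on them. The median change of the members was 0.27 on slide 1, -0.17 on slide 2, 0.61 on slide 3 and -0.55 on slide 4. Sample numbers in the file names form a low and a high series of 8 pigs each, and the median change was -0.29 in the first and 0.28 in the second. SLA-3 A_72_P625308 had the higher mean in low-RFI pigs on every slide, at 1.24, 0.28, 1.28 and 0.09, and so did SLA-8 A_72_P734731. Both were picked for their small p in these same pigs, so the agreement between slides is not separate support. With array noise in the fit the median change of the members was -0.10, no member had an unadjusted p under 0.05, and the changes of A_72_P625308 and A_72_P734731 were 0.66 and 0.73. The part of array noise in these changes was not tested further.

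Differences between overlapping probes within a pig cancel log2 shifts common to both probes, but not shifts that differ between the probes. They were compared between lines for the 6 pairs by exact two-sided permutation over all 12870 splits of the pigs, with Benjamini-Hochberg adjustment over the 6 pairs. Array noise, which differed between the lines, was not fitted to these differences, and its part in them was not tested. The size of such a difference is not a ratio of amounts, and only its contrast between lines is read. SLA-3 A_72_P682906 minus A_72_P625308 ranged from 0.32 to 1.80 in low-RFI pigs (median 1.48) and from 1.69 to 2.68 in high-RFI pigs (median 2.29). The lines overlapped only through high-RFI pig 2, at 1.69, and the other 7 high-RFI pigs exceeded every low-RFI pig. The means were 1.39 ± 0.47 and 2.24 ± 0.31 (SD, n = 8), a contrast of -0.85 (exact p = 0.000622, adjusted p = 0.00373 over the 6 pairs), and it was -0.97, -0.23, -1.55 and -0.66 on slides 1 to 4. Low-RFI pig 3, at 0.32, stood apart, and without it the contrast was -0.70 (exact p = 0.000932). A_72_P625308 already had the largest SLA-3 change, so this contrast and that change share their values. Since class I genes are polymorphic, a difference in sequence under a probe and one in transcript level cannot be told apart here.

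SLA-8 A_72_P541846 minus A_72_P734731, probes that differ at 1 of 58 shared bases, ranged from 0.15 to 0.28 in low-RFI pigs (median 0.23) and from 0.24 to 0.48 in high-RFI pigs (median 0.35). The contrast was -0.15 (exact p = 0.00124, adjusted p = 0.00373 over the 6 pairs), which is the difference between the changes of 0.80 and 0.95 of the probes themselves. The lines overlapped only through high-RFI pig 8, at 0.24. The contrast was -0.06, -0.16, -0.19 and -0.19 on slides 1 to 4. With normexp background correction it was -0.112 (exact permutation p = 0.0121). Leaving out the marked arrays takes away 5 high-RFI pigs and no low-RFI pig. The contrast was then -0.225 (exact permutation p = 0.00606, the smallest that the remaining pigs can give). The remaining 4 pairs did not pass, with adjusted p = 0.485 by the exact permutation for each. Their contrasts were -0.02 for B2M, -0.13 for SLA-1 A_72_P262732 minus SLA-5 A_72_P441848, 0.12 for SLA-3 A_72_P440386 minus SLA-1 A_72_P440391, and 0.45 for SLA-3 A_72_P625729 minus SLA-5 A_72_P414498. Probes named for different genes could still follow each other closely: A_72_P440386 and A_72_P440391 correlated at 0.949 over the pigs and A_72_P262732 and A_72_P441848 at 0.925, while the 2 SLA-3 probes that share 42 bases correlated at 0.424.

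**Figure D3:**
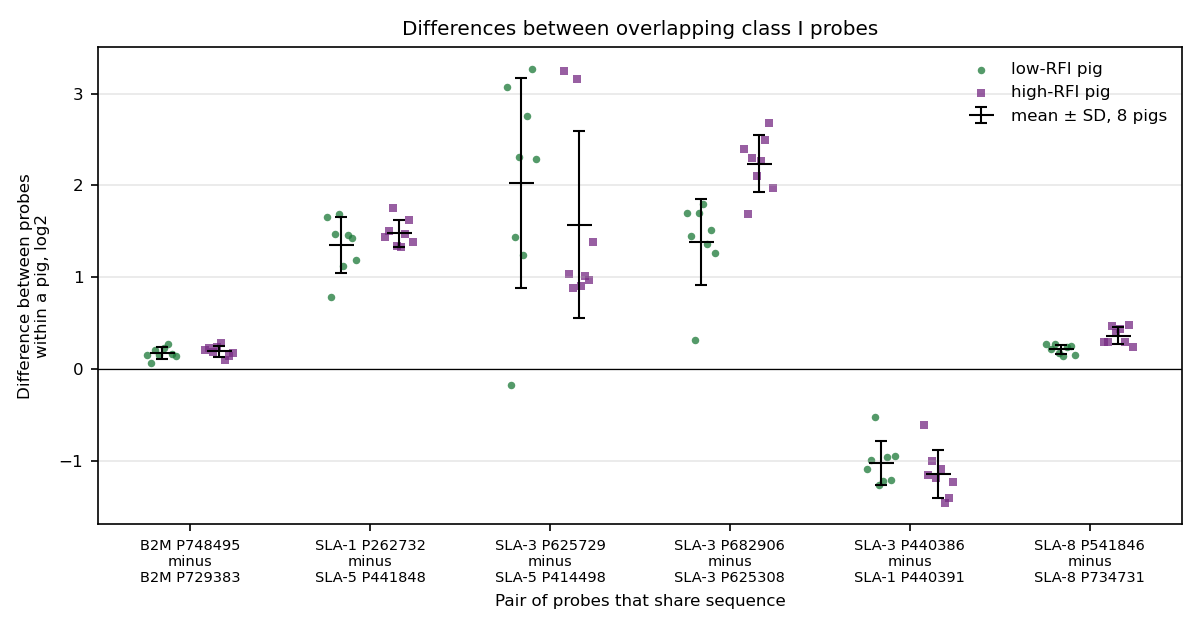
Difference in log2 level between the 2 probes of each overlapping pair within a pig, for 8 low-RFI (circles) and 8 high-RFI (squares) pigs, with mean ± SD. The SLA-3 pair A_72_P682906 and A_72_P625308 separates the lines most, at 1.39 against 2.24, and the SLA-8 pair differs by 0.15.

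A few probes outside the rule bear on the same genes. A_72_P609764, described as leucocyte antigen 3/2, shares 57 bases with SLA-3 A_72_P515992 at 2 mismatches and changed by 0.18 (SE 0.22, adjusted p = 0.983), where A_72_P515992 changed by -0.10. A_72_P443672, described as a fragment of SLA-9, changed by -1.31 (SE 0.62, unadjusted p = 0.0503, adjusted p = 0.916) and was well above background in 4 pigs of each line. A_72_P322008, described as SLA-11, changed by 0.31 (SE 0.17, adjusted p = 0.967). All adjusted p here are from the limma fit over all tested probes.

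The other genes of the pathway gave no call either. Of the peptide loading complex and the chaperones of the endoplasmic reticulum, 3 of 10 listed genes were measured and none passed the limma test, CALR, the lectin chaperone calreticulin, having the smallest p at a change of 0.09 (SE 0.14, adjusted p = 0.995). Of the immunoproteasome and its activator, which cut proteins into peptides for class I, 6 of 7 were measured and none passed. PSMB10, an immunoproteasome subunit, changed by -0.35 (SE 0.14, unadjusted p = 0.0255, adjusted p = 0.843), and PSME1, an activator subunit, by 0.17 (SE 0.13, adjusted p = 0.979). Of 10 listed regulators of class I transcription 6 were measured and none passed, with NLRC5, the class I transactivator, at -0.06 (SE 0.14, adjusted p = 0.998). Of the other partners of B2M, 3 of 8 were measured and none passed, CD1D, which presents lipids, being at 0.10 (SE 0.11, adjusted p = 0.979).

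Of 25 interferon-inducible genes 17 were measured and none was called. They had a median change of 0.26 with 13 of 17 means higher in low-RFI pigs, where over 4500 named genes the median was 0.02 and 54.2% were higher. DDX58, a sensor of viral RNA, had the smallest p at 0.86 (SE 0.32, unadjusted p = 0.0143, adjusted p = 0.718), followed by USP18, which removes ISG15 from proteins, at 0.64 (SE 0.27, adjusted p = 0.887). CXCL9, a chemokine, was at -0.91 (SE 0.66, adjusted p = 0.979). Among cell type markers, 12 of 17 T and NK genes were measured, 10 of them well above background on all 16 arrays, and none was called, with a median change of 0.15 and mean levels over the list from -0.74 to 1.49 among low-RFI pigs and from -0.60 to 1.08 among high-RFI pigs. The 6 measured Kupffer cell markers, of the liver macrophages, had a median change of -0.05 with 3 means higher and 3 lower in low-RFI pigs. CD14, the lipopolysaccharide co-receptor, was at 0.35 (SE 0.12, unadjusted p = 0.0117, adjusted p = 0.708) and LYZ, lysozyme, at 0.24 (SE 0.30). VSIG4, a complement receptor of Kupffer cells, was at -0.31 (SE 0.25) and AIF1, a calcium-binding protein of macrophages, at -0.22 (SE 0.21).

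Across pigs, members rose and fell with the T and NK cell markers to a degree that depended on 2 pigs. Over the 16 pigs 28 of the 31 tested member probes correlated above 0.5 with the mean of the 12 markers, where 4.82% of all tested probes did. Without both pigs numbered 5 the count was 14 of 31, where 3.44% of all tested probes did. The correlations ran from 0.300 for SLA-7 to 0.873 for SLA-8 A_72_P070231, with a median of 0.653. Without those pigs 30 of the 31 correlations were lower, with a median of 0.483, and they were 0.820 for A_72_P070231, 0.607 for SLA-5 A_72_P441848, 0.483 for B2M A_72_P441589 and -0.115 for SLA-5 A_72_P414498. In bulk liver, more cells of a type and more RNA per cell cannot be told apart. The part of these cells in any difference between the lines was not tested.

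One probe per gene, the brightest, was used for tests of such relations, with p from 100000 permutations and Benjamini-Hochberg adjustment over 24 relations to 3 lists. SLA-8 A_72_P070231 against the T and NK list gave Pearson r = 0.873 and Spearman rho = 0.938 (permutation p = 1e-05 for both, the smallest these permutations can give, adjusted p = 0.00024). It was 0.888 without the 2 pigs farthest from the median of the probe, 0.899 within the low-RFI line, 0.983 within the high-RFI line, and 0.819 and 0.945 within the 2 series of sample numbers. TAP1 A_72_P223837 against the Kupffer list gave r = 0.784 (permutation p = 0.00027, adjusted p = 0.00232) and rho = 0.776 (permutation p = 0.00062, adjusted p = 0.00496). Without pigs numbered 5, which are also the 2 farthest ones, r was 0.707. TAP1 against the T and NK list gave r = 0.798 (permutation p = 0.00029, adjusted p = 0.00232) and rho = 0.709 (permutation p = 0.00274, adjusted p = 0.0164), but 0.521 without those 2 pigs (adjusted permutation p = 0.167), so that relation rests on them. TAP1 against the interferon-inducible list gave r = 0.759 (permutation p = 0.00077, adjusted p = 0.0037) and rho = 0.574 (permutation p = 0.0232, adjusted p = 0.0697). It was 0.485 without those 2 pigs (adjusted permutation p = 0.167), and no other gene passed by r with that list. In all, 8 of the 24 relations had an adjusted p under 0.05 by r and 5 by rho. Of the 8, 4 also passed without the 2 farthest pigs, and SLA-7 with the Kupffer list passed only then.

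**Figure D4:**
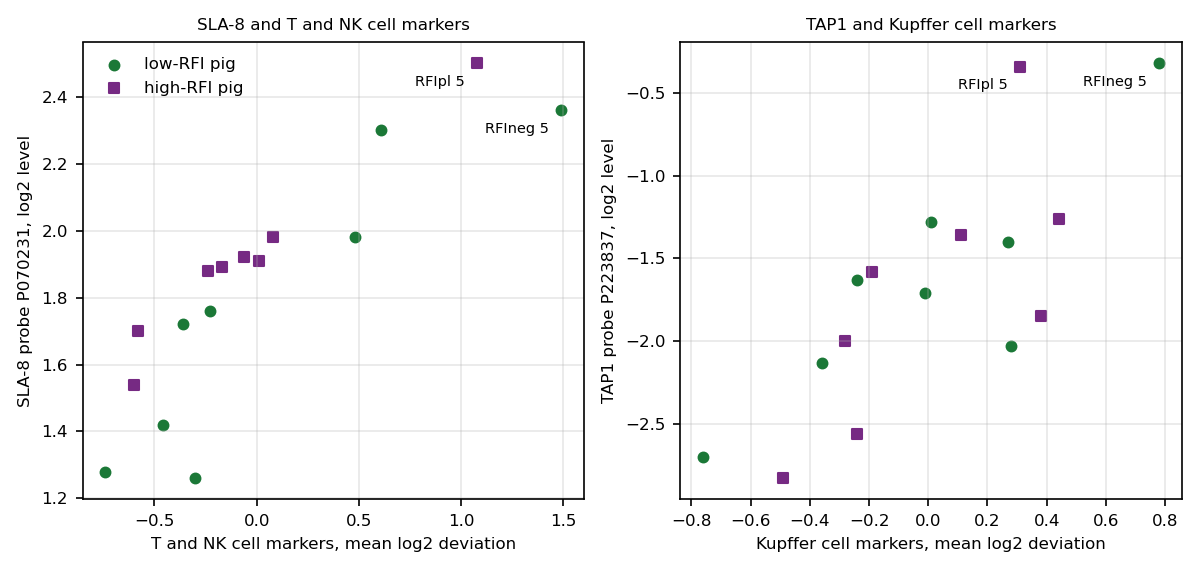
Left, log2 level of SLA-8 A_72_P070231 against the mean log2 deviation of 12 T and NK cell markers, and right, TAP1 A_72_P223837 against 6 Kupffer cell markers, 1 point per pig (circles low-RFI, squares high-RFI). Levels rise with the marker means, with r = 0.873 and 0.784 over 16 pigs, and both pigs numbered 5 lie at the upper end.

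Among the members themselves, 28 relations between the brightest probes of 8 genes were computed. An adjusted p under 0.05 was reached by 6 of them by r, 4 by rho, and 0 without the 2 pigs farthest from the median, when 14 pigs remained. The closest was SLA-5 A_72_P441848 with SLA-8 A_72_P070231, at r = 0.822 (permutation p = 0.00013, adjusted p = 0.00364) and rho = 0.856 (permutation p = 5e-05, adjusted p = 0.0014). Without low-RFI pigs 1 and 5 it was 0.728 (permutation p = 0.00217, adjusted p = 0.0608). B2M with SLA-5 followed at r = 0.784 (permutation p = 0.00043, adjusted p = 0.00602) and rho = 0.776 (permutation p = 0.00078, adjusted p = 0.00952), and 0.697 without 2 pigs (adjusted permutation p = 0.0773). B2M with TAP1 gave r = 0.328 and rho = 0.318 (permutation p = 0.214 and 0.231).

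The genes outside the members whose levels followed them most closely were found by Pearson r over the 16 pigs among 4484 genes, as a description. For TAP1 they were IFI30, a lysosomal thiol reductase induced by interferon gamma, at 0.940, IL16, a cytokine acting on CD4+ cells, at 0.929, CD86, a co-stimulatory molecule of antigen-presenting cells, at 0.921, LCP1, an actin bundling protein of leukocytes, at 0.914, and GBP4, an interferon-induced GTPase, at 0.908. For B2M they were ISG12(A), an interferon-stimulated gene, at 0.878, the ribonuclease gene RNASE4 at 0.831, LOC100155945 at 0.738, the apolipoprotein gene APOF at 0.732 and LAMP2, of the lysosomal membrane, at 0.732. For SLA-1 A_72_P035616 they were LOC100513143 at 0.813, TCTEX1D4 at 0.810, LOC100153963 at 0.776, NR1H3, which encodes a liver X receptor, at 0.761 and SLC16A9, of the monocarboxylate transporter family, at 0.757. With line means removed, every one of these 15 values stayed above 0.7. They were not computed again without both pigs numbered 5, which had the highest TAP1 levels of their lines.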

How the data were processed

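Cy3-labelled liver RNA of 16 pigs was read from 1-colour Agilent arrays with Feature Extraction 10.7.3.1, per the file headers. Per the file headers the processed signal is a linear intensity from which background and spatial trend were removed array by array, with no scaling between arrays, and the mean spot signal and median background are intensities too. The authors' deposited table holds log2 values of 27938 spots, which equalled the log2 processed signal centred on the listed spots within 4.5e-08, and how its spots were selected is not stated in the labels or file headers. The submitters' processing notes name R 2.10.0.

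From the processed signal, log2 levels minus the 75th percentile of each array were computed, outlier spots were left out and spots of a probe averaged. Probes well above background on at least 8 of 16 arrays were tested, 30098 in all. Lines were compared with limma 3.58.1 in R 4.3.3, low-RFI minus high-RFI, adjusted by Benjamini-Hochberg across every tested probe, at a threshold of 0.05; the fit was tested on simulated data. Probe overlaps were counted from 30 bases at 80% identity. Relations used scipy 1.17.1 and numpy 2.4.6 in Python 3.11.15, with the R packages data.table (version 1.17.8) and jsonlite (version 2.0.0), pandas 2.3.3 and matplotlib 3.10.9 for handling and figures.

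Values by pig are given for the probe of highest mean level and the probe with the smallest p of each member gene. Of other lists up to 2 genes per direction with the smallest p are named, and for B2M, TAP1 and the SLA gene of highest level the 5 most alike genes. The members and lists were chosen with earlier results of these data known. The lists hold members, peptide loading and endoplasmic reticulum chaperones, the immunoproteasome, regulators of class I transcription, partners of B2M, interferon-inducible genes, and markers of endothelium, Kupffer cells, hepatocytes, B and plasma cells, and T and NK cells. Of B and plasma cell markers 1 of 7 was measured, CD79A at -0.04 (SE 0.24), and 5 of 7 endothelial markers had a median change of 0.08, 7 of 12 hepatocyte markers one of 0.07. No build is named by the files, so coordinates are not given, and RefSeq tables served for names and gene order only.

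Alternatives were normexp with an offset of 50, quantile and median scaling, the authors' table, 2 other filters, outlier spots kept, replicate number, slide and series of sample numbers as blocks or each slide and series alone, array noise as a covariate, arrays marked for evaluation left out, trend with robust variances, and leaving out each pig. Leaving out both pigs numbered 5, the relations to marker lists and the contrasts of overlapping probes were added after seeing the data.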

Additional observations from a re-analysis of the deposited data

Results flagged for a closer look

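Single pigs stood apart from the other 7 of their line, by a Dixon test of the gap over the range, in 4 of the 36 groups of 8 tested over the 12 named probes and 6 probe pairs, and chance gives about 1 in 20. Low-RFI pig 5 was at 3.29 on SLA-5 A_72_P414498, where the next low-RFI pig was at 1.08. High-RFI pig 5 was at 2.50 on SLA-8 A_72_P070231, where the next was at 1.98. Low-RFI pig 3 was at 0.32 for SLA-3 A_72_P682906 minus A_72_P625308, where the next was at 1.26. The same pig was at -0.52 for SLA-3 A_72_P440386 minus SLA-1 A_72_P440391, where the next was at -0.94.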

How the results depend on the processing

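No alternative, left-out pig, slide or series gave a called member probe. The number of all tested probes called, 3 in the reported fit, was 1 with the filter on all 16 arrays, 0 with array noise as a covariate, 0 without the marked arrays, 1 without both pigs numbered 5, 0 within slide 1, 0 within slide 3, 0 within slide 4, 1 and 0 within the first and second series of sample numbers, and 2 to 5 on leaving out each pig, with 5 without low-RFI pig 2 and 5 without high-RFI pig 4. The median change of the members was 0.605 within slide 3 and -0.548 within slide 4, against -0.098 to 0.053 under the alternatives that use most pigs, and -0.147 to 0.161 on leaving out each pig. The labels do not say that replicate numbers pair the pigs, and the reported fit did not use the numbers as pairs. Deviations of same-numbered pigs from the line means correlated from 0.0475 to 0.395, over 0.1 for 6 of 8. These values cannot decide whether the pigs are paired. Of the low-RFI pigs, 5 of 8 matched best with the high-RFI pig of their own number. Every best match lay within the pig's own series of sample numbers, and what same-numbered pigs share was not tested. Pigs of the same number also belong to the same series, and the series was not taken out of these correlations. With the replicate block 4 probes were called in all and 0 members.

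A change turned its sign as follows. SLA-7 A_72_P223217 was 0.226 with normexp, 0.012 with quantile normalization, 0.046 and 0.169 within slides 1 and 2, 0.294 within the first series, and -0.267 to 0.079 on leaving out each pig. SLA-6 A_72_P237292 was -0.028 with array noise, -0.070 without the marked arrays, -0.552 on slide 1, -0.435 on slide 2, -0.245 within the first series, and -0.155 to 0.259 on leaving out each pig. TAP1 A_72_P223837 was -0.325 and -0.782 within slides 2 and 4, and -0.114 (without low-RFI pig 5) to 0.275 on leaving out each pig. SLA-5 A_72_P441848 was 0.200 and 0.669 within slides 1 and 3, 0.203 within the second series, and -0.205 to 0.082 on leaving out each pig. SLA-3 A_72_P682906 was 0.277 and 0.042 within slides 1 and 2 and 0.176 within the second series. SLA-5 A_72_P414498 was 0.259 within slide 1, SLA-1 A_72_P035616 was 0.281 within slide 3, and SLA-8 A_72_P070231 was 0.244 within slide 3 and 0.030 within the second series. B2M A_72_P441589 was -0.076, -0.277 and -0.158 within slides 2 and 4 and the first series, and A_72_P733784 was -0.037, -0.286 and -0.093 there. The cause was not tested.

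Of the probe contrasts, SLA-3 A_72_P682906 minus A_72_P625308 missed the threshold within the first series, at -0.833, and SLA-8 A_72_P541846 minus A_72_P734731 within the second, at -0.166, both with exact p = 0.0857 on 8 pigs. On leaving out each pig they were -0.930 to -0.699 and -0.166 to -0.131, past the threshold each time. With permutation within replicate numbers, a replicate block, both gave exact p = 0.00781, the smallest that this permutation can give. B2M A_72_P748495 minus A_72_P729383 was 0.005 with normexp and 0.027 within the second series, and A_72_P625729 minus A_72_P414498 was -0.420 within the first. Relations between members with an adjusted p under 0.05, 6 of 28, numbered 0 without the 2 farthest pigs, 9 with line means removed, 5 and 2 within the low-RFI and high-RFI lines, and 4 and 2 within the first and second series.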
